A study of Mus musculus with 6 samples.

Results

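H2-T23, Gm8909, Gm10499 and H2-M10.2 are 4 nonclassical major histocompatibility complex (MHC) class I genes outside the H2-Q group. They were taken by gene symbol from a deposited table of 88 genes that KEGG assigns to cellular senescence, a durable stop of cell division. That table holds 24 MHC class I genes, of which 14 lie outside the H2-Q genes and the classical genes H2-K1 and H2-D1, so the 4 genes are a choice among the nonclassical ones. Messenger RNA from 6 samples of mouse brain, labelled as neuroblast, was sequenced: 3 samples from young and 3 from aged brain. All 6 samples carry the same note of a tamoxifen injection and of counting of fluorescently marked natural killer (NK) cells, which the labels do not relate to the sequenced RNA. Ages, strain and alleles are not stated in the labels. The protocol describes ground tissue, so fewer cells of a type and less RNA per cell cannot be told apart. For all 88 genes the aged mean exceeded the young mean. The 4 genes were thus selected on the same aged and young signal values that are described here, with earlier results in view. Their aged and young values are therefore a description, and no p-value of a fit made here is given for them. Calls from a fit across the whole table are counted beside its background share and support nothing here.

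MHC class I molecules carry peptides to the cell surface together with beta-2 microglobulin. The classical molecules show a wide range of peptides to cytotoxic T cells. Nonclassical molecules vary less between individuals, and several have narrow roles. H2-T23 encodes the heavy chain of Qa-1, which presents peptides from the leader sequences of other class I molecules and is a ligand of the inhibitory receptor formed by CD94 and NKG2A on NK cells. H2-M10.2 belongs to the M10 family, known from sensory neurons of the vomeronasal organ. Gm8909 and Gm10499 are class I-like gene models in the H2-T region whose proteins have no established role here.

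The 4 genes lie on the minus strand of chromosome 17 in GENCODE release M21. H2-T23 stands between H2-T24 and H2-T22 among the coding genes of RefSeq's mouse table (GRCm38.p6), and Gm10499 is next to Gm8909. The RefSeq spans of Gm8909 and Gm10499 overlap each other, and both overlap the long noncoding gene 2410017I17Rik. The span of H2-T23 overlaps the noncoding gene A930015D03Rik. Gm10499 is a protein-coding gene in RefSeq and a transcribed pseudogene in GENCODE. The build behind the deposited values is not known here, and the protocol describes no step that marks strand, so reads of these overlapping genes could have been split or joined in the authors' counting.

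The sequences just upstream of the start sites are shown because those of Gm8909 and Gm10499 are alike. Of the 4, only that of H2-T23 holds the interferon-type motif marked below. Each stretch below holds the 250 bases before the start site annotated by RefSeq, 5′ to 3′ on the gene's own strand, from GRCm38.p6, and all 4 symbols matched. Capitals mark matches, on either strand, to the Y box core CCAAT, to the interferon-type motif GAAANNGAAA and to the core promoter motif TATAAA. On the opposite strand these read ATTGG, TTTCNNTTTC and TTTATA. The motifs were chosen after the sequences were seen.
H2-T23 promoter, chr17:36032702-36032951, minus strand: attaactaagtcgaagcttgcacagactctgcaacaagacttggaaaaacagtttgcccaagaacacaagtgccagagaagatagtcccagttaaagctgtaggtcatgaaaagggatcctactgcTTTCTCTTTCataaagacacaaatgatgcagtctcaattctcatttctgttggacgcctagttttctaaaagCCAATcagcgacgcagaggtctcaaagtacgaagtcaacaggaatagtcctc
Gm8909 promoter, chr17:36168538-36168787, minus strand: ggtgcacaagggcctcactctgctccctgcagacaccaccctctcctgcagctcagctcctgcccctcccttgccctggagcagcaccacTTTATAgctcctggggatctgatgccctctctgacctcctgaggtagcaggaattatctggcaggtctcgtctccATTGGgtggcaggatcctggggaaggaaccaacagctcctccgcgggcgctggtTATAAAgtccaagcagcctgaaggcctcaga
Gm10499 promoter, chr17:36145950-36146199, minus strand: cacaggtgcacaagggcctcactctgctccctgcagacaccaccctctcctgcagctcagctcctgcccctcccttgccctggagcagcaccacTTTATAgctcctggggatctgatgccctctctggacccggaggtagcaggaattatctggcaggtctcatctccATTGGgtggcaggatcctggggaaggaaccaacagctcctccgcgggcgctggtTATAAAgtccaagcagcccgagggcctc
H2-M10.2 promoter, chr17:36286422-36286671, minus strand: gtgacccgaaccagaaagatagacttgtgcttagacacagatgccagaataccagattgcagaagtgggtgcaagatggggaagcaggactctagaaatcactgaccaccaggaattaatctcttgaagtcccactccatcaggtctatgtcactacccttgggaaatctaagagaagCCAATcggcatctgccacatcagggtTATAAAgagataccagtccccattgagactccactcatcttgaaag

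The stretches of Gm8909 and Gm10499 are near copies. Over 246 aligned bases they were identical at 240, or 97.6%, with 6 mismatches and 1 gap base. Both hold CCAAT on the opposite strand, starting at base −85 from the start site in Gm8909 and at base −82 in Gm10499. Both also hold TATAAA, starting at base −31 and base −28 on the same strand and at base −160 and base −156 on the opposite strand. The promoter of H2-T23 holds CCAAT at base −52 and, unlike the other 3 stretches, a match to GAAANNGAAA, on the opposite strand from base −124 to base −115. The promoter of H2-M10.2 holds CCAAT at base −72 and TATAAA at base −46. Among 32851 RefSeq mouse promoters of the same length, 33.8% held CCAAT, 12.4% held TATAAA and 2.98% held GAAANNGAAA, so the last is the rarest of the 3. The GC content of the stretches was 42.4% for H2-T23 and 46.8% for H2-M10.2, against 60.0% for Gm8909 and 61.2% for Gm10499. A match describes the letters in this window and shows neither binding nor a cause.

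**Figure D1:**
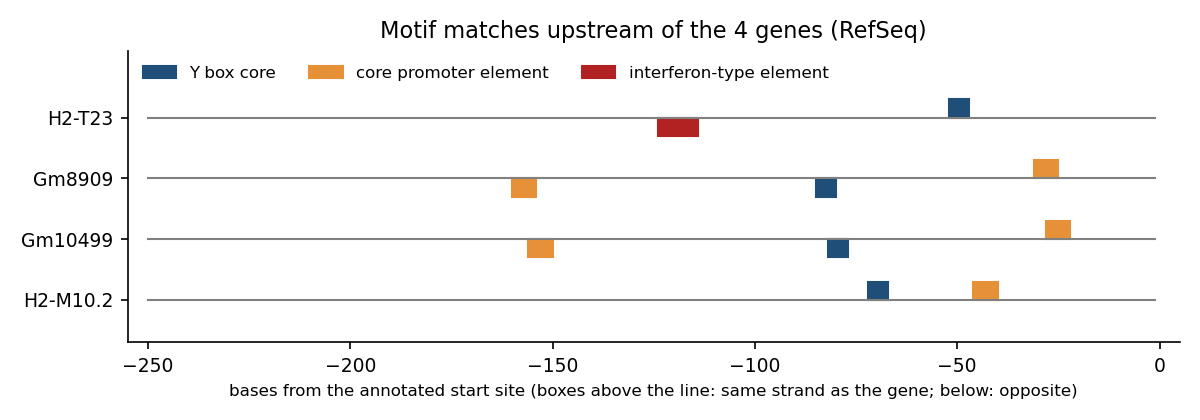
Positions of the 3 motifs upstream of the 4 genes, in bases from the annotated start site on the x axis, with boxes above a line for matches on the gene's strand and below it for the opposite strand. The rows of Gm8909 and Gm10499 carry the same 3 matches a few bases apart, and the interferon-type match appears in the row of H2-T23.

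The transcripts of Gm8909 and Gm10499 resemble one another less than their promoters do. In GENCODE M21 the longest coding transcript (for Gm10499 the spliced pseudogene transcript) has 1472 bases for H2-T23, 1428 for Gm8909, 934 for Gm10499 and 1113 for H2-M10.2. Gm8909 and Gm10499 were identical at 78.7% of 911 aligned bases, with 186 gap bases, and H2-T23 and Gm8909 at 78.1% of 1363. H2-M10.2 was the most distant, at 69.1% or less to each of the others over the aligned bases. Exact stretches of 50 bases give a measure of what a short read could not assign. For H2-T23, 28.8% of its 1423 such windows also occurred in a transcript of another gene, with H2-T-ps (12.9%), H2-Q1 (7.87%) and Gm7030 (7.80%) sharing most. For Gm8909 it was 14.3% of 1379 windows, with H2-Q1 (7.90%) and H2-Q7 (7.54%) first, and only 2.54% were shared with Gm10499. The share was 12.4% for H2-M10.2, mostly with other M10 genes, and 2.60% for Gm10499. With windows of 100 bases the shares dropped to 7.28% for H2-T23 and 2.63% for Gm8909 and to 0 for Gm10499 and H2-M10.2. The classical genes H2-D1 and H2-K1, compared with H2-T23 and Gm8909 below, shared 6.45% and 2.54% of the 50-base windows of Gm8909. For H2-T23 they shared 7.1% and 4.08%. Of the windows of 100 bases, H2-D1 shared 2.63% for Gm8909 and 3.35% for H2-T23. The read length is not stated in the labels, and shared reads make the single values of these genes uncertain. The share of windows does not bound that uncertainty, since it leaves out the signal of the sharing genes.

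The deposited values are an expression signal whose unit is not named, so levels are not compared between genes. The depth of the libraries is unknown. Aged replicate 1 stood apart: across the 66 genes whose mean signal reached 1, its log2 values correlated with those of the other libraries at Pearson's r of 0.723 to 0.844, against 0.930 to 0.992 for all other pairs (across genes, which are not independent replicates). The fold changes and log2 changes of the tested genes below are given with and without that library. None of the 37 fixed markers of neuroblasts, NK cells, microglia, lymphocytes, endothelium, glia and vomeronasal neurons is among the 88 genes, so the neuroblast label could not be checked in this table. Of 10 choroid plexus markers, 3 are present (Igfbp2, Trpv4 and Calml4), none of them at 0 in any library. The labels do not say whether samples came from separate animals, so any spread between them may be technical.

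H2-T23 (Entrez gene 15040), the Qa-1 heavy chain, had a signal of 58.23, 64.65 and 61.49 in young replicates 1 to 3. Its signal in aged replicates 1 to 3 was 39.36, 84.32 and 88.91. Aged replicates 2 and 3 exceeded every young library and aged replicate 1 was under every one of them, so the groups overlapped on both sides. The aged mean was 70.9 ± 27.4 and the young mean 61.5 ± 3.21 (SD, n = 3 each), a ratio of 1.15. On the log2(signal + 1) scale the change was 0.12 (limma SE 0.362), against a median of 0.12 over all 66 genes. That difference is smaller than the spread between the aged replicates. It changed direction, to −0.091, when library medians were set equal, which lowered every change by 0.207, and to −0.051 or −0.089 without aged replicate 2 or 3. Without aged replicate 1 the mean of the 2 other aged samples was 86.6, or 1.41 times the young mean, with a log2 change of 0.49 (SE 0.111). Aged replicate 1 itself stood at 0.640 of the young mean.

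Gm8909 (667977) had the opposite order among the aged samples. Its signal was 3.45, 5.31 and 4.40 in young replicates 1 to 3, whereas aged replicates 1 to 3 had 24.0, 9.63 and 10.25. Every aged sample was above every young sample, and aged replicate 1 was the highest. The means were 14.6 ± 8.12 and 4.39 ± 0.930 (SD, n = 3 each), a ratio of 3.33. Its log2 change was 1.43 (SE 0.381). Over the alternative runs it went from 0.80 without aged replicate 1 and with library medians equal to 1.74 as the log2 ratio of means. Leaving out a library, the replicate block, the pseudocount and the ratio of means could not reverse its sign, given that order of the samples. The kept sign is thus no support. Without aged replicate 1 alone, the aged mean of 9.94 was 2.27 times the young mean and the log2 change was 1.04 (SE 0.215). Aged replicate 1 was 5.47 times the young mean. Of the 66 genes, 4, or 6.06%, had all aged samples above all young samples, and Gm8909 was one of them. The others, named here after their values were seen, were H2-Q9, Mdm2 and Zfp36l1. H2-Q9, an MHC class I gene of the H2-Q group, had 3.11, 2.67 and 2.35 in the young libraries. In the aged libraries it had 3.56, 10.69 and 12.09. Its ratio of means was 3.24 and its log2 change 1.26, so this order was not particular to Gm8909. The table holds only genes with a higher aged mean, so nothing is read from that count.

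Gm10499 (69717), next to Gm8909, had values at the lower end of the table. Its signal was 0.47, 0.58 and 0.23 in young replicates 1 to 3, whereas aged replicates 1 to 3 had 1.09, 1.00 and 0.54. Aged replicates 1 and 2 exceeded every young library, while aged replicate 3 was below young replicate 2. The means were 0.877 ± 0.295 and 0.427 ± 0.179 (SD, n = 3 each), a ratio of 2.05 that was 1.80 without aged replicate 1. Summed with Gm8909, the young libraries had 3.92, 5.89 and 4.63 and the aged ones 25.09, 10.63 and 10.79, and the log2 change of the sum was 1.41, close to that of Gm8909 alone. The ratio of means of the sum was 3.22, and 2.23 without aged replicate 1.

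H2-M10.2 (333715) was listed at 0.07, 0.06 and 0.06 in the aged samples. In the young samples it was listed at 0.07 in replicate 1 and at 0 in replicates 2 and 3. The highest young value equals the highest aged value, and all 6 values are at or below 0.07 in a file with 2 decimals. Its relatives H2-M10.3 and H2-M10.5 were listed at 0 in all but 1 library each, where the value was 0.04. No change is read from these numbers. Of the 4 genes, Gm10499 and H2-M10.2 had means below 1 over the 6 samples and were not in the fit.

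**Figure D2:**
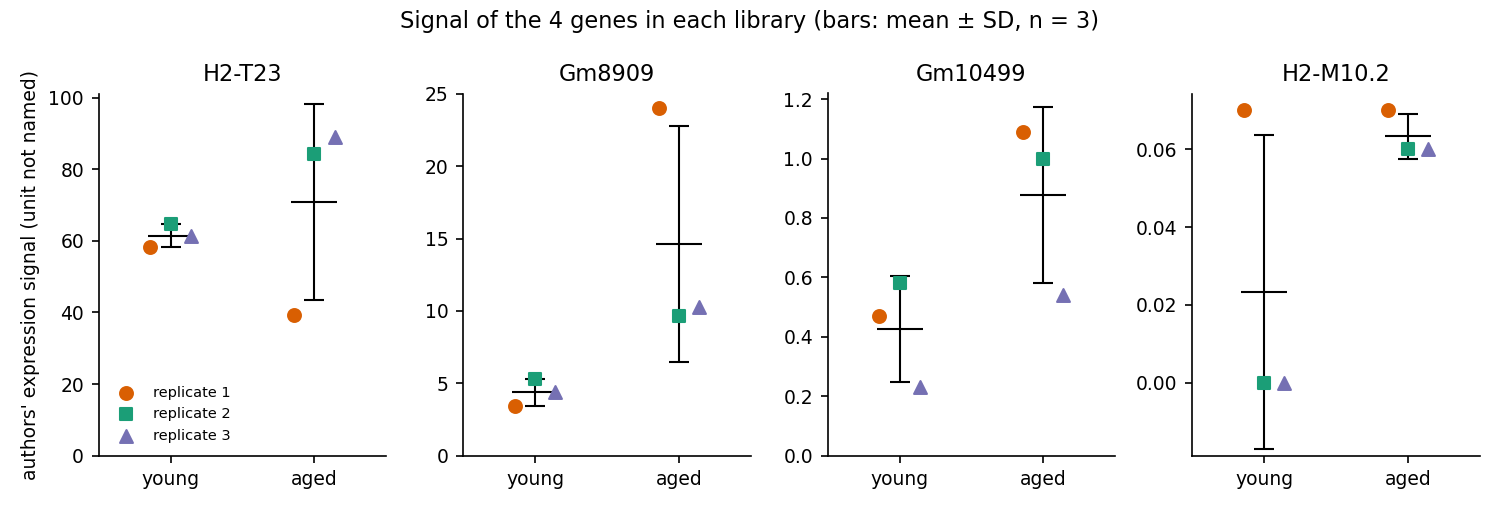
Deposited signal (y axis, own scale per gene) of the 4 genes in each young and aged library, with the symbol giving the replicate number and bars giving mean ± SD (n = 3 each); the lower bar of H2-M10.2 reaches below 0 because 2 of its 3 young values are 0. Aged replicate 1 is the lowest of the 6 libraries for H2-T23 at 39.36 and the highest for Gm8909 at 24.0.

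The opposite position of aged replicate 1 in H2-T23 and Gm8909 was not limited to these genes. That library was the lowest of the 6 in 26 of the 66 genes and the highest in 28. Among the 13 MHC class I genes with a mean of at least 1, it was the lowest in 7 (H2-T23, H2-T22, H2-T10, H2-K1, H2-D1, H2-Q4 and H2-Q7) and the highest in 2, Gm8909 and Gm11127. H2-T22, whose product is known as a ligand of gamma delta T cells and which is named here after its values were seen, had a signal of 22.09, 32 and 27.41 in the young libraries and of 9.59, 37.26 and 39.86 in the aged ones. Gm11127, another class I-like gene model of the H2-T region also named after its values were seen, had 1.92, 1.51 and 2.72 in the young libraries and 2.79, 2.37 and 2.40 in the aged ones. The summed choroid plexus markers came to 860, 414 and 436 in the young libraries and to 222, 926 and 960 in the aged ones. Their sum was lowest in aged replicate 1 and highest in aged replicates 2 and 3, and it was carried by Igfbp2, with 733, 329 and 353 in the young and 169.6, 776 and 814 in the aged libraries. Trpv4 had 60.01, 49.91 and 54.49 in the young and 18.4, 74.74 and 80.15 in the aged libraries, the same order of aged replicate 1 and the rest. Calml4 did not follow it, with 67.52, 35.49 and 28.93 in the young and 34.01, 74.88 and 65.67 in the aged libraries, so that its lowest value was in young replicate 3. Young replicate 1, where H2-T23 had its lowest young value, was high in all 3 markers among the young libraries. Their part in the values of H2-T23 and Gm8909 was not tested.

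The genes with the profile nearest to H2-T23 over the 6 libraries were Lin37, H2-Q4 and Mapk11. Likeness was measured as the root mean square difference between log2(signal + 1) profiles centred on their own means. It was 0.0666 for Lin37, which encodes a subunit of the cell cycle repressor complex DREAM, and 0.132 for H2-Q4, a nonclassical class I gene. It was 0.138 for Mapk11, a p38 kinase gene, against a median of 0.508 over the 65 other genes. Lin37 had a signal of 10.82, 13.64 and 12.12 in the young libraries and of 7.70, 17.72 and 16.72 in the aged ones, the same order of high and low groups as H2-T23. Without aged replicate 1, Lin37 and H2-Q4 stayed the nearest and H2-D1 took the third place. Gm8909 had no such close match. Its 2 nearest genes were Zfp36l1 (0.523), an mRNA decay factor, and E2f2 (0.559), a cell cycle transcription factor, against a median of 0.868. Without aged replicate 1, neither remained among the 3 nearest and H2-K1 (0.190), Ccnd3 (0.199) and H2-D1 (0.232) took their place, so the profile of Gm8909 over the other 5 libraries was nearest to 2 classical class I genes and a cyclin D gene.

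**Figure D3:**
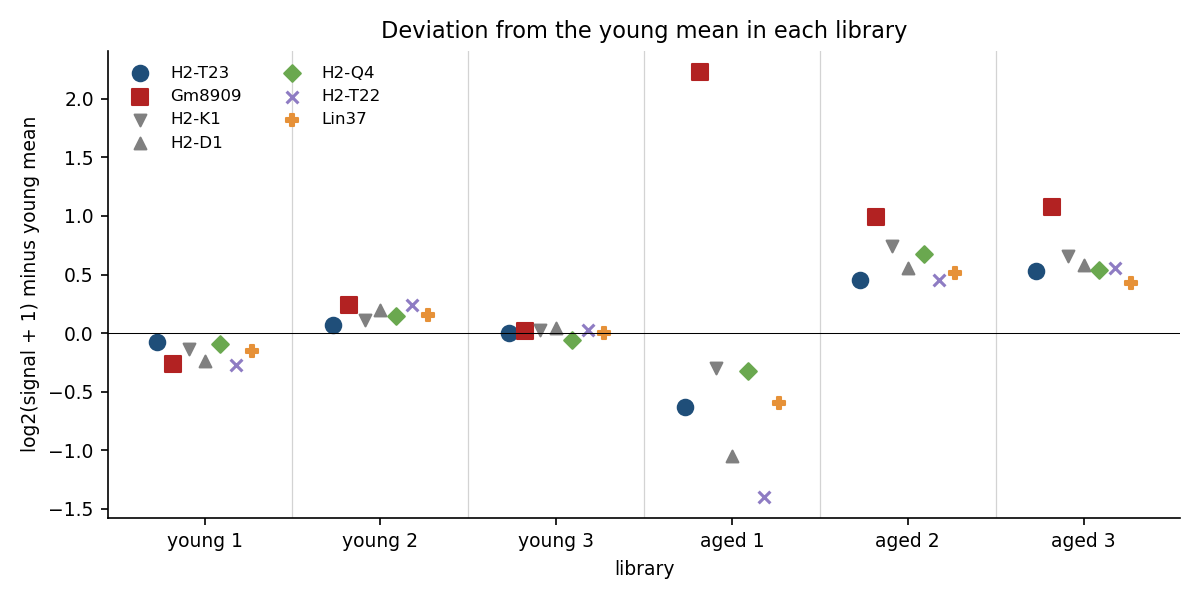
Difference of log2(signal + 1) from the mean of the 3 young libraries (y axis) in each library (x axis) for H2-T23, Gm8909 and 5 other genes, with no error since each point is 1 library. In aged replicate 1 Gm8909 lies above the young mean and the 6 other genes lie below it. In aged replicates 2 and 3 all 7 lie above it. The class I genes H2-Q6, H2-Q9, H2-M3 and Gm11127, not drawn here, were also above the young mean in aged replicate 1.

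Set against the classical genes of the same library, H2-T23 had overlapping values in the 2 groups. Its log2(signal + 1) minus the mean of H2-K1 and H2-D1 was −1.53, −1.73 and −1.67 in young replicates 1 to 3. The aged values were −1.60, −1.84 and −1.73. The aged mean was −1.72 ± 0.122 and the young mean −1.64 ± 0.103 (SD, n = 3 each). This difference does not depend on the scaling of a library, and aged replicate 1 lay among the other libraries in it. For H2-K1 the young libraries had 145, 172 and 162 and the aged ones 129, 268 and 252. For H2-D1 the young libraries had 199, 271 and 242 and the aged ones 113, 346 and 352. Against the summed signal of the 8 H2-Q genes, which include the Qa-2 antigens, H2-T23 stood at −0.47, −0.58 and −0.47 in the young libraries and at −0.92, −1.08 and −0.88 in the aged ones. Here every aged sample was below every young sample, aged replicate 1 included, as in 14 of 61 tested genes outside H2-Q (23%). The difference between the group means was −0.45, and −0.47 without aged replicate 1. The H2-Q sum itself was 80.95, 97.4 and 85.6 in the young libraries and 75.2, 179.6 and 164 in the aged ones. H2-Q4 made up most of that sum in every library. It had 58.11, 68.63 and 59.5 in the young libraries and 49.4, 99.58 and 90.54 in the aged ones. The difference of H2-T23 to single H2-Q genes was not taken.

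Gm8909 minus the classical genes was −5.26, −5.10 and −5.20 in the young libraries and −2.29, −4.85 and −4.73 in the aged ones. All aged samples were above all young samples, as in 3 of 64 tested genes (4.69%), by a mean of 1.24 that was 0.40 without aged replicate 1. With a pseudocount of 0.1 these differences were 1.405 and 0.546. Against the H2-Q sum, Gm8909 stood at −4.20, −3.96 and −4.00 in the young libraries and at −1.61, −4.09 and −3.88 in the aged ones, and the groups overlapped. Aged replicates 2 and 3 thus lay close to the young samples on that measure, and aged replicate 1 alone stood far above them. The difference between the group means was 0.87 with aged replicate 1 and 0.075 without it. With a pseudocount of 0.1 it was 1.033 and 0.2145, so the small difference depends on the pseudocount.

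**Figure D4:**
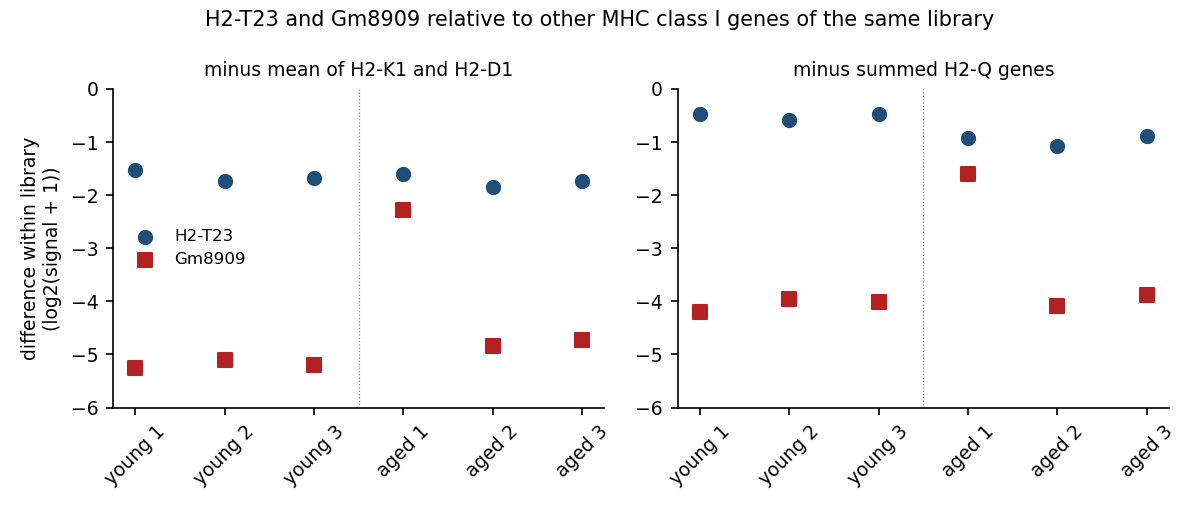
Log2(signal + 1) of H2-T23 and Gm8909 minus that of the mean of H2-K1 and H2-D1 (left) or of the summed H2-Q genes (right), 1 point per library. H2-T23 lies between −1.84 and −1.53 in all 6 libraries on the left, and aged replicate 1 stands apart for Gm8909 in both panels, at −2.29 and −1.61.

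In the fit across the table, limma called 0 of 66 genes (0%) at a 5% false discovery rate, so neither of the 2 tested genes of this set was called, and 3 of the 66 had an unadjusted p under 0.05. Without aged replicate 1 it called 15 of 66 genes (22.7%), 14 of them higher in the aged samples (21.2%), with H2-T23 and Gm8909 among them. With library medians also set equal it called 9 of 66 (13.6%), and of the 2 only Gm8909 was called. Both aged replicates 2 and 3 exceeded every young library in 29 of 66 genes (43.9%), H2-T23 and Gm8909 included. The table was picked for a higher aged mean, and for a gene with a low aged replicate 1, such as H2-T23, the mean of the other 2 aged libraries had to be high. Nothing is read from these counts. In the authors' deposited table the log2 ratio of aged to young was 0.24 for H2-T23, 1.71 for Gm8909, 1.02 for Gm10499 and 1.63 for H2-M10.2. The q-value in the authors' deposited table was 3.6e-13 for H2-T23, 8.1e-110 for Gm8909, 0.00259 for Gm10499 and 0.387 for H2-M10.2. In the authors' deposited table, 54 of 85 genes with a q-value (63.5%) were under 0.05, by a test that neither the labels nor the headers name. These q-values rest on the same aged and young samples by which the genes were selected, so they are no support. For H2-T23 the aged and young samples overlapped on both sides, so its q-value does not measure the spread between samples.

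**Figure D5:**
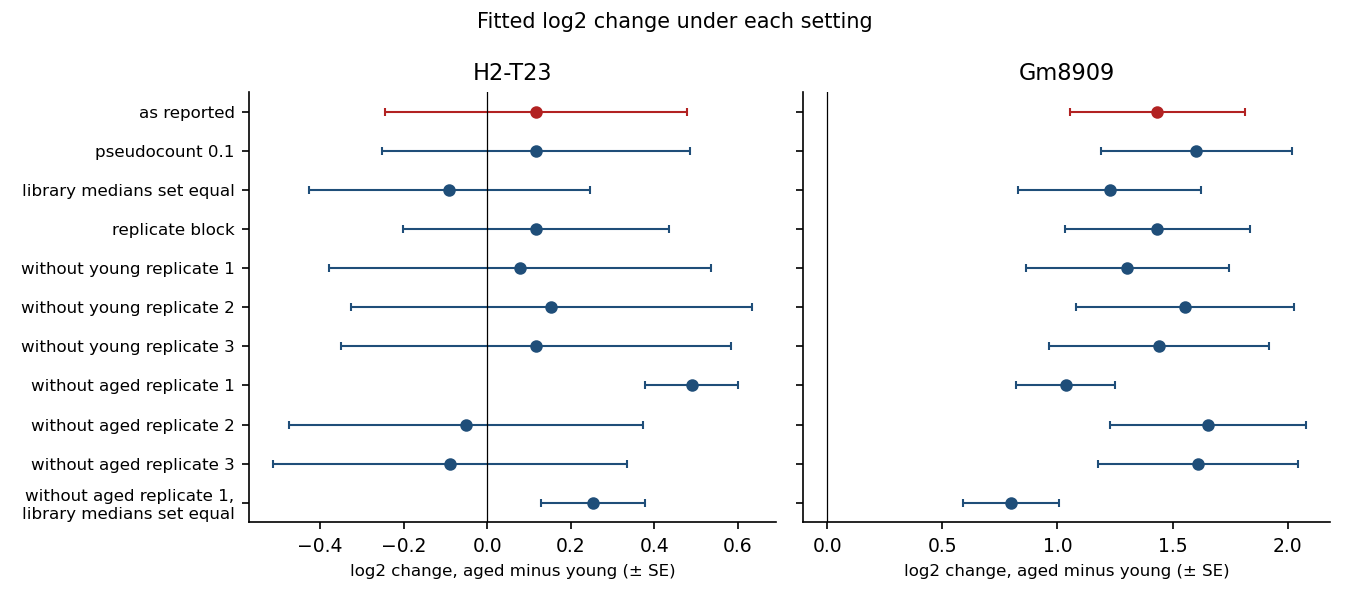
Fitted log2 change, aged minus young, on the log2(signal + 1) scale (x axis, bars are limma's SE) of H2-T23 and Gm8909 under each setting (y axis; the pseudocount is 0.1 in 1 of them). H2-T23 lies on both sides of 0, from −0.091 to 0.49, and Gm8909 lies above 0 in each of them, from 0.80 to 1.65.

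The wider MHC class I group gives the setting of these values. Of its 24 genes in the table, 13 had a mean of at least 1, and limma called 0 of them with all 6 libraries, with a median log2 change of 0.30 against 0.12 over all tested genes. Without aged replicate 1 it called 9 of the 13, each higher in the aged samples, with a median of 0.61 against 0.20, where 22.7% of all tested genes were called. With library medians also set equal it called 3 of the 13, with a median of 0.37 against −0.039, where 13.6% of all tested genes were called. The shares of all tested genes include these 13. The table was picked for a higher aged mean and aged replicate 1 was the lowest library in 7 of the 13, so nothing is read from these counts either. Of the 10 nonclassical genes outside H2-Q that were not among the 4, 4 had a mean of at least 1 (H2-T22, H2-T10, H2-M3 and Gm11127), with log2 changes from −0.13 to 0.22, and from 0.17 to 0.50 without aged replicate 1. None of these had all aged samples above all young samples, and in H2-T22 and H2-T10 aged replicate 1 was under every young library and the other aged ones exceeded them all. All 4 genes of the set carry the same 5 KEGG terms, among them antigen processing and presentation, which 25 of the 88 genes carry. None of 17 partners of class I molecules fixed as a list, such as B2m, Tap1 and Nlrc5, and none of 11 receptors and ligands of NK cells, such as Klrc1 and Klrd1, which encode NKG2A and CD94, is in the table, so neither the partners of Qa-1 nor its receptor were analysed here.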

How the data were processed

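Per the labels' protocols, RNA was extracted with Trizol from ground tissue, mRNA was captured on oligo(dT) beads and copied with random hexamers, and libraries were made as single-stranded DNA circles. The table the authors deposited gives each gene a signal in each sample with 2 decimals. What unit it has, how it was normalized and which aligner and build were used are points not given in the sources used here, and reads were not recovered from the values. Per the file headers, the table also holds the authors' log2 ratio, p-value and q-value. Groups and replicate numbers come from the sample titles. A second deposited table, of cell cycle genes, holds none of the 4 genes and was not used.

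The members and the lists were chosen with earlier results of these data known. The 66 of 88 genes whose mean over the 6 samples reached 1 were fitted with limma 3.58.1 in R 4.3.3 on log2(value + 1), eBayes with trend and no covariate, with Benjamini-Hochberg adjustment over the 66 genes at 5%. This is the test set for a normalized unit, since the values are not counts. The fit was tested on simulated data whose noise had the spread of the young samples in every library. No simulated library stood apart as aged replicate 1 does, so that test does not cover this feature of the data. The 1 added before the logarithm understates changes of low values. Named genes were the 4 members, the 3 nearest profiles of each tested member, H2-K1, H2-D1, the summed H2-Q genes and the fixed lists; 1 gene that this rule names is not reported here. Alternatives were equal library medians, each library left out, a replicate block, a pseudocount of 0.1, a minimum mean of 5 or none, eBayes without trend and a 10% false discovery rate. Added after the data were seen were the sum of Gm8909 and Gm10499, the ratio of group means and the exact windows of 50 and 100 bases. Promoters came from RefSeq (GRCm38.p6) and transcripts from GENCODE M21, aligned with Biopython 1.88. Python 3.11.15, numpy 2.4.6, pandas 2.3.3 and matplotlib 3.10.9 were used for the rest.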

Additional observations from a re-analysis of the deposited data

How the results depend on the processing

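The depth is unknown, and the 3 samples per group, 1 of which stood apart, limit the precision. Of 14 alternatives for the count of called genes, 12 gave 0 as in the reported fit; the count was 15 without aged replicate 1 and 9 without it and with library medians equal, and ran from 0 to 15 with 1 library left out. The log2 change of H2-T23 turned to −0.091 with equal library medians and to −0.051 and −0.089 without aged replicate 2 and 3, and ran from −0.089 to 0.49 with 1 library left out. That of Gm8909 stayed above 0 in all 12 alternatives. Leaving out a library, the block, the pseudocount and the ratio of means could not reverse it, since all its aged values exceeded all its young ones. The log2 change of Gm8909 was 0.80 without aged replicate 1 and with equal medians, and 1.04 to 1.65 with 1 library left out. That of Gm10499 was 0.39, with 0.90 at a pseudocount of 0.1, 1.04 as the log2 ratio of means, 0.070 without aged replicate 1 and with equal medians, and 0.29 to 0.53 with 1 library left out. That of H2-M10.2 was 0.056, with 0.45 at a pseudocount of 0.1, 1.44 as the log2 ratio of means, −0.15 with equal medians and −0.19 with equal medians and without aged replicate 1; it ran from 0.040 to 0.089 with 1 library left out. Equal medians shift a gene listed near 0 by the whole 0.207, by construction. Relative to the classical genes, the aged minus young difference of H2-T23 was −0.082, with −0.45 for the summed H2-Q genes as reference and −0.15 to −0.023 with 1 library left out, and that of Gm8909 was 0.40 to 1.68 with 1 library left out. For the other changes the cause was not tested.

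The replicate numbers are balanced between the groups, so the replicate block cannot move a log2 change, only its SE. The log2 change of H2-T23 was thus again 0.12 (SE 0.318) and that of Gm8909 1.43 (SE 0.402). The count with the block was 0. The log2 change of Gm10499 with the replicate block was 0.39 and that of H2-M10.2 was 0.056. The numbers were not taken to pair the samples, since the deviations of same-numbered samples correlated at 0.271, 0.0908 and 0.408 and 1 of these is under 0.1. Aged replicates 1 and 3 correlated best with the young sample of their own number, and aged replicate 2 with young replicate 3, at 0.254. Where a setting leaves 2 samples in a group, limma pools the spread.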
